A study of Mus musculus with 4 samples.

Results

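The 10 genes described here are the nuclear factor I (NFI) family, Nfia, Nfib, Nfic and Nfix, and 6 genes used as marks of the glial lineage, Olig1, Olig2, Sox8, Sox10, Pdgfra and Aldh1l1. They were taken by symbol from the 19968 genes listed in both deposited tables, and all 10 were found there and passed the expression filter. RNA was from cerebral cortex at embryonic day 15, of mice of the C57BL/6 strain. In the labels used here, a conditional deletion of Prdm16 (genotype Prdm16cKO, called cKO) was compared with control embryos whose Prdm16 alleles are floxed (genotype Prdm16fl/fl, called floxed). The Cre line, the deleted exon and the Cre status of the controls are not named in those labels. The tables held 2 libraries of the cKO group, called cKO 1 and cKO 2, and 1 library of the floxed group, so only the cKO group has an SD and every floxed value is that of 1 library.

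NFI proteins are DNA-binding factors of radial glia and young neurons, and mice lacking them form glia late and lack midline glial structures. OLIG1 and OLIG2 are basic helix-loop-helix factors of ventral progenitors and of the oligodendrocyte lineage. SOX8 and SOX10 belong with SOX9 to the SoxE group, and SOX10 is needed for oligodendrocytes to mature. Pdgfra encodes the PDGF receptor of oligodendrocyte precursors, and Aldh1l1 a folate enzyme widely used to mark astrocytes. In mouse cortex, embryonic day 15 lies within the period of neuron production, before most glia are made.

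The libraries held 19514882 (cKO 1), 18579178 (cKO 2) and 17839662 (floxed) counts, and levels are counts per 1000000 of these totals (CPM). The cortical factor genes Emx1, Emx2, Neurod6 and Tbr1, added after the data were seen, were present in all 3 libraries, with Neurod6 at 979 CPM in cKO 1, 872 CPM in cKO 2 and 902 CPM in floxed. Prdm16 itself had 676, 447 and 538 counts in cKO 1, cKO 2 and floxed, or 34.6, 24.1 and 30.2 CPM. The library labelled cKO 1 was thus above floxed, against its label as far as a count over the whole gene can show, since reads of exons that are not deleted are counted too. Directions below therefore refer to the libraries labelled cKO. The cKO libraries also differed in genes of meninges and fibroblasts, whose 17 members found summed to 1508 CPM in cKO 1, 122 CPM in cKO 2 and 971 CPM in floxed. Both comparisons use the same floxed library, so a deviation of that library enters both.

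Promoter sequences of 3 of the genes are printed here from RefSeq (GRCm38.p6), because NFI, OLIG and SOX proteins are DNA-binding factors whose own genes are described below. Each line gives the 250 bases before the RefSeq start, 5′ to 3′. Nfia (chr4:97581693-97581942, plus strand) is shown as the NFI gene with the highest fitted fold, and Pdgfra (chr5:75152001-75152250, plus strand) as the gene that differed most between the cKO libraries. In both, capitals mark the E-box CANNTG, which is the same on both strands and is the kind of site basic helix-loop-helix factors bind. Olig2 (chr16:91225300-91225549, plus strand) is shown because its window held more NFI cores than any other window listed for the 7 of the 10 genes that RefSeq gave here. The core, TTGGC on either strand, is in capitals there.
Nfia: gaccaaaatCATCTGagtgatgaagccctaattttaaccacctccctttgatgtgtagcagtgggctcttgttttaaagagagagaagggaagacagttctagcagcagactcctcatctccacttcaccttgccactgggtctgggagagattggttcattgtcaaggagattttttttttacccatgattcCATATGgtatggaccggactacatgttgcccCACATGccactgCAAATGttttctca
Pdgfra: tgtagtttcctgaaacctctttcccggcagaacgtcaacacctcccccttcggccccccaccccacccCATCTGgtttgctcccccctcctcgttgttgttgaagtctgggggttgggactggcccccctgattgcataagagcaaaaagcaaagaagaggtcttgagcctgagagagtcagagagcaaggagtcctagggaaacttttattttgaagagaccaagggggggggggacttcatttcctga
Olig2: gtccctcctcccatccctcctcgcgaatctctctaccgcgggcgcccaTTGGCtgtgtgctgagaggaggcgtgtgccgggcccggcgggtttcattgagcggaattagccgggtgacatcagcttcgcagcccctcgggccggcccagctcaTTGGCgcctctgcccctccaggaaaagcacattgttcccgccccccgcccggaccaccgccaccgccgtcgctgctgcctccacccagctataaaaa

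The Nfia window held 4 E-boxes and no NFI core, the Pdgfra window 1 E-box and no NFI core, and the Olig2 window 2 NFI cores and no E-box. Over the first listed start of 27025 genes, 66% of such windows held an E-box and 41.9% an NFI core, so these matches are common. The paired NFI site, TTGGC and GCCAA with 5 bases between them, was in 0.0407% of all windows and in none of those listed for the genes described here. The SOX site ACAAAG, on either strand, was in 16.5% of all windows and in none of these 3. RefSeq windows were also found for Nfic, Nfix (4 starts), Sox8 and Aldh1l1. The RefSeq start of Nfia lies before the Nfia gene as the tables give it (chromosome 4, 97772734 to 98118874).

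Nfia and Nfib had higher levels in the libraries labelled cKO than in floxed, by 1.15-fold to 1.25-fold, while Nfic and Nfix had ratios to floxed of 0.948 to 1.08. In bulk tissue, more cells with a transcript and more transcript per cell cannot be told apart. Nfia was counted 6529 times in cKO 1, 5873 times in cKO 2 and 4768 times in floxed (335, 316 and 267 CPM). Both cKO libraries lay above floxed and differed from each other by 1.06-fold. The cKO mean was 325 ± 13.1 CPM (SD, n = 2). The ratio to floxed was 1.25 in cKO 1 (exact 95% Clopper-Pearson interval 1.21 to 1.30) and 1.18 in cKO 2 (1.14 to 1.23); these intervals cover counting error only. Fitted over both cKO libraries, the log2 fold was 0.30 (SE 0.12), with an unadjusted p of 0.0606 and an adjusted p of 1 in edgeR's quasi-likelihood test.

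Nfib (chromosome 4, 82290173 to 82705750, minus strand) is the NFI gene whose loss in mice delays maturation of the lung as well as the forebrain. It was counted 23174 times in cKO 1, 20573 times in cKO 2 and 17135 times in floxed (1188, 1107 and 960.5 CPM), again with both cKO libraries above floxed. The cKO mean was 1147 ± 56.7 CPM (SD, n = 2). The ratio to floxed was 1.24 in cKO 1 (interval 1.21 to 1.26) and 1.15 in cKO 2 (1.13 to 1.18). The log2 fold fitted to both cKO libraries was 0.27 (SE 0.13, edgeR unadjusted p = 0.0986, adjusted p = 1). The noncoding gene Gm11266 lies within the span of Nfib on the opposite strand and shares no exon base with it. It had 49.9, 50.9 and 39.9 CPM in cKO 1, cKO 2 and floxed, with a fitted log2 fold of 0.36 (SE 0.13, edgeR unadjusted p = 0.0471, adjusted p = 1). Because the library kit does not mark strand, reads of unspliced Nfib RNA over Gm11266 exons cannot be told from reads of Gm11266. E130114P18Rik, which meets Nfia over 4 exon bases on the opposite strand, had 28.4 and 28.7 CPM in cKO and 34.2 CPM in floxed. These neighbours were chosen after their values were seen.

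Nfix (chromosome 8, 84699876 to 84800344, minus strand), a regulator of the balance between stem cell division and differentiation, had the most counts of the family. It was counted 26349 times in cKO 1, 26341 times in cKO 2 and 25413 times in floxed (1350, 1418 and 1424 CPM). The ratio was 0.948 in cKO 1 (interval 0.932 to 0.964) and 0.995 in cKO 2 (0.978 to 1.01), and with TMM factors the log2 fold of cKO 2 turned from -0.01 to 0.04. Nfic (chromosome 10, 81396186 to 81455635, minus strand), known best for tooth root formation, had 1386, 1192 and 1170 counts, or 71.0, 64.2 and 65.6 CPM. Its log2 fold was 0.11 in cKO 1 and -0.03 in cKO 2, and the latter turned to 0.01 with TMM factors. The fitted log2 folds were -0.02 (SE 0.14) for Nfix and 0.06 (SE 0.13) for Nfic, with an edgeR adjusted p of 1 for each. With cKO 1 left out no refit was made, and the Nfix value is the same cKO 2 log2 fold of 0.04.

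**Figure D1:**
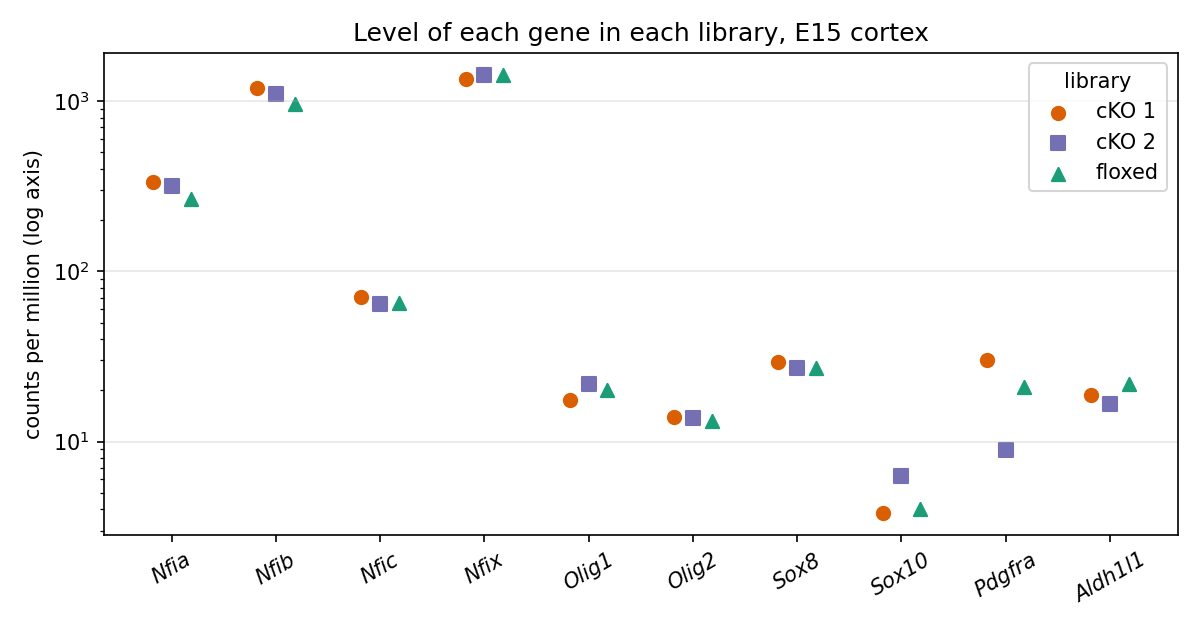
Level of each of the 10 genes in CPM (log axis), with 1 point for each library: circles cKO 1, squares cKO 2, triangles floxed. Nfia and Nfib lie above floxed in both cKO libraries, and Pdgfra spans 8.93 CPM in cKO 2 to 30.1 CPM in cKO 1.

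Per length of exon, Nfix was the leading NFI transcript in all 3 libraries. Values of CPM per kilobase of exon (RPKM) in floxed were 194 for Nfix, 64.2 for Nfib, 24.5 for Nfia and 9.89 for Nfic. The order was the same in both cKO libraries, and the ranges of neighbours over the 3 libraries did not overlap. Nfix made up 66.3% of the summed NFI level in floxed, 60.3% in cKO 1 and 63.1% in cKO 2, while Nfib made up 21.96%, 26.1% and 24.2%. These shares need no scaling between libraries. The ratio of Nfix to Nfib per length was 3.02 in floxed (interval 2.96 to 3.08), 2.31 in cKO 1 (2.27 to 2.36) and 2.60 in cKO 2 (2.56 to 2.65), so the counting intervals of the libraries did not overlap. The ratio of Nfib to Nfia was 2.62 in floxed (2.53 to 2.70), 2.58 in cKO 1 (2.51 to 2.66) and 2.55 in cKO 2 (2.48 to 2.63), and here the intervals overlapped. No fit across libraries was made for these ratios.

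**Figure D2:**
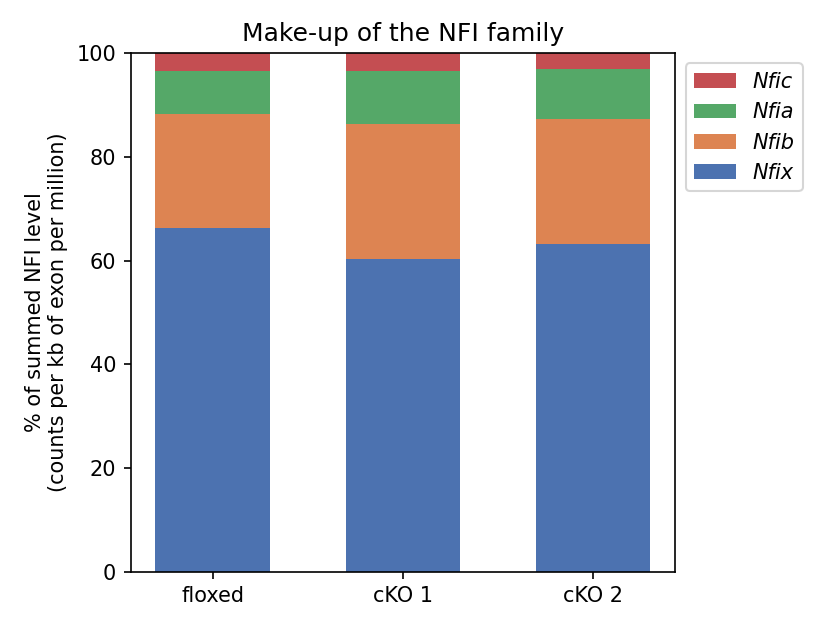
Share of each NFI gene in the summed NFI level, in % of CPM per kilobase of exon, with 1 stacked bar for each library. The Nfix share was 66.3% in floxed, 60.3% in cKO 1 and 63.1% in cKO 2.

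Counts of related genes can be mixed where their transcripts share sequence. Only exact matches of 50 bases were looked for, so near matches are not covered. Of 11026 distinct stretches of 50 bases in Nfia transcripts (GENCODE M21) and 15091 in Nfib transcripts, 0 were found in transcripts of any other gene. Nfix shared 1.34% and Nfic 0.358% of such stretches, with genes outside the family. The largest shares were 10% for Aldh1l1, 8.99% for Sox8 and 5.11% for Olig1. The library kit does not mark strand, and reads over bases shared with an antisense gene cannot be assigned to either strand.

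The Olig genes lie near each other on chromosome 16 (Olig2 at 91225550 to 91228677, Olig1 at 91269772 to 91271933, both plus strand). Neither differed from floxed beyond counting error in either cKO library. Olig2 was counted 271 times in cKO 1, 257 times in cKO 2 and 236 times in floxed (13.9, 13.8 and 13.2 CPM), a cKO mean of 13.9 ± 0.0383 CPM (SD, n = 2). Its ratio to floxed was between 0.878 and 1.26 in cKO 1 and between 0.873 and 1.25 in cKO 2 (exact 95% intervals). Olig1 had 344, 405 and 360 counts, or 17.6, 21.8 and 20.2 CPM, with floxed between the cKO libraries. The Olig1 ratio to floxed was 0.874 in cKO 1 (interval 0.751 to 1.02) and 1.08 in cKO 2 (0.935 to 1.25). The ratio of cKO 1 to cKO 2 was 0.809 for Olig1 (interval 0.698 to 0.936) and 1.004 for Olig2 (0.843 to 1.20). Olig1 exceeded Olig2 per length by 1.485-fold in cKO 1 (1.26 to 1.75), 1.844-fold in cKO 2 (1.57 to 2.17) and 1.785-fold in floxed (1.51 to 2.11). The fitted log2 folds were 0.08 (SE 0.23) for Olig2 and -0.01 (SE 0.24) for Olig1, with an edgeR adjusted p of 1 for each. With TMM factors and no refit, the log2 fold of Olig1 in cKO 2 alone was 0.15.

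Olig2 is also made by progenitors of the ventral telencephalon, where cortical interneurons arise. The 16 genes listed for that region summed to 704 CPM in cKO 1, 656 CPM in cKO 2 and 778.5 CPM in floxed. Beyond counting error, 1 of 15 tested was higher and 6 lower in cKO 1, with 2 higher and 8 lower in cKO 2, and the median log2 folds were -0.06 and -0.26. Over all 16725 genes tested, the background for this and the other lists, 17.8% were higher and 16% lower in cKO 1, and 16.1% and 24.5% in cKO 2. Lhx6, an interneuron factor, had 56.1 and 62.9 CPM in cKO and 82.9 CPM in floxed (fitted log2 fold -0.46, SE 0.15, edgeR adjusted p = 1). Nkx2-1, which marks the medial ganglionic eminence, had 8.15 CPM in cKO 1, 13.9 CPM in cKO 2 and 11.2 CPM in floxed, while Lhx8 had 3.74, 7.11 and 7.74 CPM. The part of ventral tissue in the Olig values was not tested.

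Sox8 was near floxed and Sox10 differed between the cKO libraries. Sox8 (chromosome 17, 25565892 to 25570686, minus strand) was counted 570 times in cKO 1, 500 times in cKO 2 and 482 times in floxed (29.2, 26.9 and 27.0 CPM). Its ratio to floxed was between 0.956 and 1.22 in cKO 1 and between 0.877 and 1.13 in cKO 2, and its log2 fold in cKO 2 turned from -0.01 to 0.04 with TMM factors. Sox8 shares 10.6% of its exon bases with 2810468N07Rik on the opposite strand, which had 91, 65 and 72 counts. The fitted log2 fold of Sox8 was 0.07 (SE 0.16, edgeR adjusted p = 1).

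Sox10 (chromosome 15, 79154913 to 79164490, minus strand) had the fewest counts of the 10 genes, 74 in cKO 1, then 117 in cKO 2, against 72 in floxed (3.79, 6.30 and 4.04 CPM). Only cKO 2 stood apart from floxed, with a ratio of 1.56 (interval 1.15 to 2.12), where cKO 1 had 0.940 (0.670 to 1.32). The ratio of cKO 1 to cKO 2 was 0.602 (0.444 to 0.812). Fitted over both cKO libraries, the log2 fold was 0.34 (SE 0.46, edgeR adjusted p = 1). With TMM factors and no refit, it was -0.10 in cKO 1 alone and 0.68 in cKO 2 alone. In the authors' deposited tables the log2 fold was 0.64 for cKO 2 (adjusted p = 0.00812) and -0.09 for cKO 1 (adjusted p = 0.598), and neither was marked significant. Bcas1, a gene of newly formed oligodendrocytes, had 2.67, 4.31 and 2.69 CPM in cKO 1, cKO 2 and floxed, and Gpr17, an orphan receptor of that stage chosen after its values were seen, had 3.84, 5.60 and 3.64 CPM. Both were highest in cKO 2, as Sox10 was, but the myelin gene Mal was lowest there, at 1.69, 0.431 and 1.46 CPM. Their lists as a whole did not share 1 direction in cKO 2. Of 11 tested genes of myelin and oligodendrocytes, 4 were higher and 2 lower there beyond counting error, with a median log2 fold of -0.26. Of 19 oligodendrocyte precursor genes, 6 were higher and 3 lower, with a median of 0.04.

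Neural crest and Schwann cells express Sox10 as well. Of the 12 genes listed, 11 were found and 8 tested. In cKO 1, 3 were higher beyond counting error and 0 lower, and in cKO 2, 0 were higher and 3 lower, with median log2 folds of 0.13 and -1.01. The neurotrophin receptor gene Ngfr had 26.5 CPM in cKO 1, 23.6 CPM in cKO 2 and 22.4 CPM in floxed. The crest factor gene Foxd3, named with its values in view, had 2, 1 and 2 counts in cKO 1, cKO 2 and floxed, under the floor of 3 counts. Tfap2b, a crest factor gene also expressed in meninges, had 2.72 CPM in cKO 1, 1.68 CPM in floxed and 0 counts in cKO 2, which allows up to 0.161 CPM (3 counts). Sox9, the SoxE factor of radial glia, had 68.9, 58.3 and 44.4 CPM, with a fitted log2 fold of 0.53 (SE 0.15, edgeR unadjusted p = 0.0187, adjusted p = 1). Per length, Sox9 made up 51.8% of the SoxE level in floxed beside 61.1% in cKO 1 and 56.9% in cKO 2. For Sox8 the shares were 41.8%, 34.3% and 34.8%.

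Pdgfra separated the cKO libraries more than any other of the 10 genes. The gene (chromosome 5, 75152292 to 75198215, plus strand) was counted 588 times in cKO 1, 166 times in cKO 2 and 374 times in floxed (30.1, 8.93 and 21.0 CPM), with floxed between the cKO libraries. The cKO mean was 19.5 ± 14.99 CPM (SD, n = 2). The ratio to floxed was 1.44 in cKO 1 (interval 1.26 to 1.64) and 0.426 in cKO 2 (0.353 to 0.513), and cKO 1 exceeded cKO 2 by 3.37-fold (2.83 to 4.03). Fitted over both cKO libraries, the log2 fold was -0.10 (SE 0.68, edgeR adjusted p = 1). With TMM factors and no refit, it was 0.52 in cKO 1 alone and -1.19 in cKO 2 alone. The authors' deposited tables gave log2 folds of 0.52 for cKO 1 (adjusted p = 5.17e-07, not marked significant) and -1.23 for cKO 2 (adjusted p = 5.71e-20, marked significant).

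Fibroblasts of the meninges express Pdgfra as well, and their genes had the same order of libraries. Of 17 tested genes of meninges and fibroblasts, 16 were higher in cKO 1 beyond counting error and 0 lower, and in cKO 2 all 17 were lower. The median log2 folds were 0.68 and -3.65, and no gene of this list was at 0 in any library. The transporter gene Slc6a13 had 40.3 CPM in cKO 1, 25.2 CPM in floxed and 0.0538 CPM in cKO 2, on 1 count. Some genes of the oligodendrocyte precursor list had this order too, such as the proteoglycan gene Cspg4 at 14.2, 10.1 and 12.6 CPM (cKO 1, cKO 2, floxed) and the receptor gene Egfr at 5.58, 2.58 and 5.33 CPM. Others did not, such as the proteoglycan gene Bcan at 58.6, 67.4 and 55.8 CPM. Cspg4, also a pericyte gene, and Bcan were named with their values in view. The part of meningeal RNA in the Pdgfra values was not tested. Among genes of PDGF signalling, the ligand gene Pdgfa had 16.5, 16.3 and 14.5 CPM, and Pdgfd 2.203, 0.323 and 0.673 CPM. Of these 6 genes, 2 were higher and 0 lower in cKO 1, and 0 higher and 3 lower in cKO 2, with median log2 folds of 0.19 and -0.68.

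Aldh1l1 lay below floxed in both cKO libraries, in cKO 2 beyond counting error. The gene (chromosome 6, 90486427 to 90600203, plus strand) was counted 368 times in cKO 1, 310 times in cKO 2 and 387 times in floxed (18.9, 16.7 and 21.7 CPM), a cKO mean of 17.8 ± 1.54 CPM (SD, n = 2). The ratio was 0.869 in cKO 1 (interval 0.752 to 1.01) and 0.769 in cKO 2 (0.660 to 0.895). Fitted over both cKO libraries, the log2 fold was -0.27 (SE 0.20, edgeR unadjusted p = 0.233, adjusted p = 1). Its exons share 11% of their bases with Gm15756 on the opposite strand. Its mitochondrial relative Aldh1l2 had 11.0, 10.3 and 14.2 CPM in cKO 1, cKO 2 and floxed, and shares 14.1% of its exon bases with D10Wsu102e on the opposite strand. Of the 17 folate enzyme genes tested, 2 were higher and 3 lower in each cKO library beyond counting error, with median log2 folds of 0.03 and -0.0032.

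**Figure D3:**
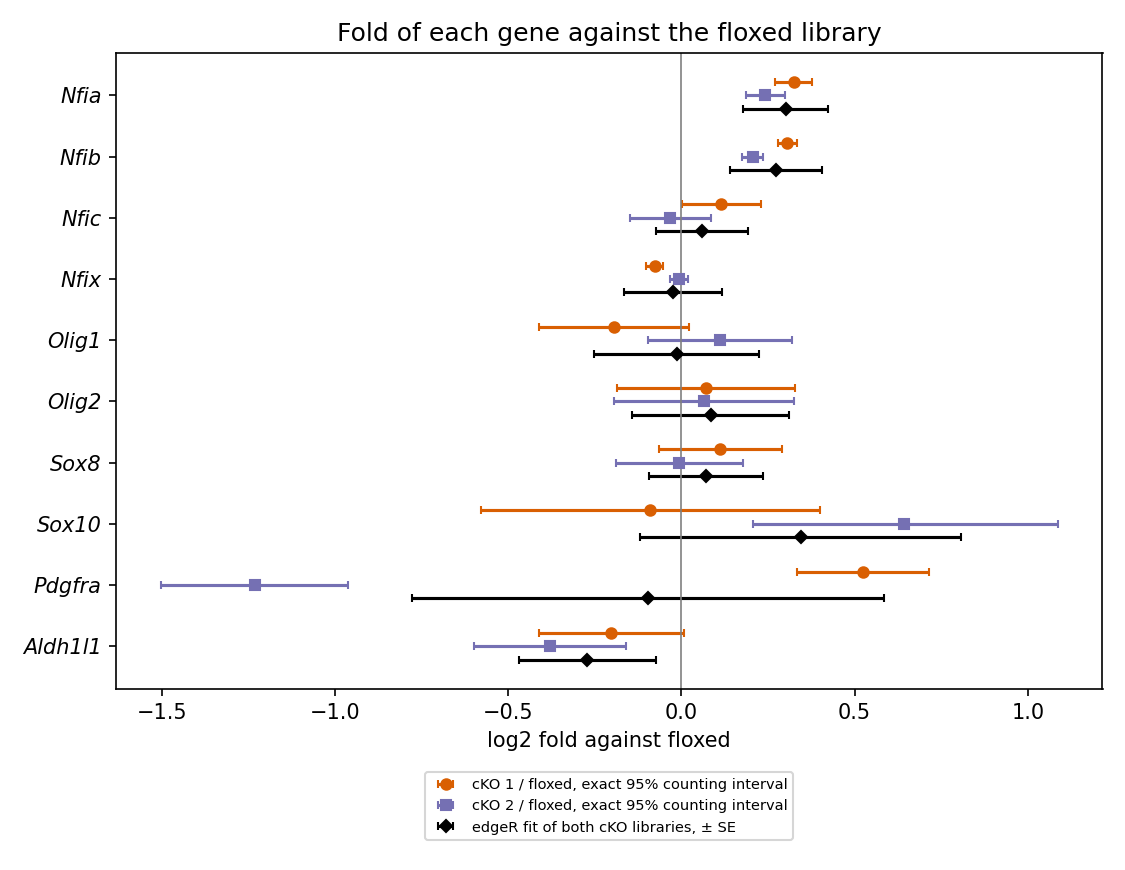
Log2 fold of each gene against floxed: circles for cKO 1 and squares for cKO 2 with exact 95% counting intervals, diamonds for the edgeR fit of both cKO libraries with its SE. Nfia and Nfib lie right of 0 in both libraries, and the Pdgfra libraries lie on opposite sides at 0.52 and -1.23.

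No gene of the 10 passed the test over all genes. With edgeR's quasi-likelihood test, 0% of 16725 genes had an adjusted p (Benjamini-Hochberg) under 0.05, and 1.3% (217 genes) had an unadjusted p under 0.05, of which 0 were members. DESeq2 called 5 genes and limma-voom 0, and neither called a member. Against counting error alone, cKO 1 had 4 members above floxed (Nfia, Nfib, Nfic and Pdgfra) and 1 below (Nfix), where 17.8% of all tested genes were above and 16% below. In cKO 2, 3 members were above (Nfia, Nfib and Sox10) and 2 below (Pdgfra and Aldh1l1), where 16.1% of all genes were above and 24.5% below. Counting intervals narrow with depth, and the NFI genes are deeply counted. Among 4319 genes with 1000 or more floxed counts, 21% were above and 34.5% below in cKO 1, and 27.2% and 32.2% in cKO 2, beside 3 and 1 of the 4 NFI genes in cKO 1 and 2 and 0 in cKO 2. The median fitted log2 fold was 0.07 over the 10 genes and 0.01 over all genes tested.

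Among the deeply counted genes, folds as high as those of Nfia and Nfib were uncommon in cKO 1 and less so in cKO 2. Of the 4319 genes, 1.27% had a log2 fold at or above that of Nfia in cKO 1 and 6.25% in cKO 2. For Nfib the shares were 1.71% and 8.96%. For Nfix, 63.1% and 48.6% lay at or above it, which places it in the middle of these genes. Of all 16725 genes tested, 4.21% had a log2 fold in cKO 2 at or above that of Sox10, and 5.78% one at or below that of Pdgfra.

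**Figure D4:**
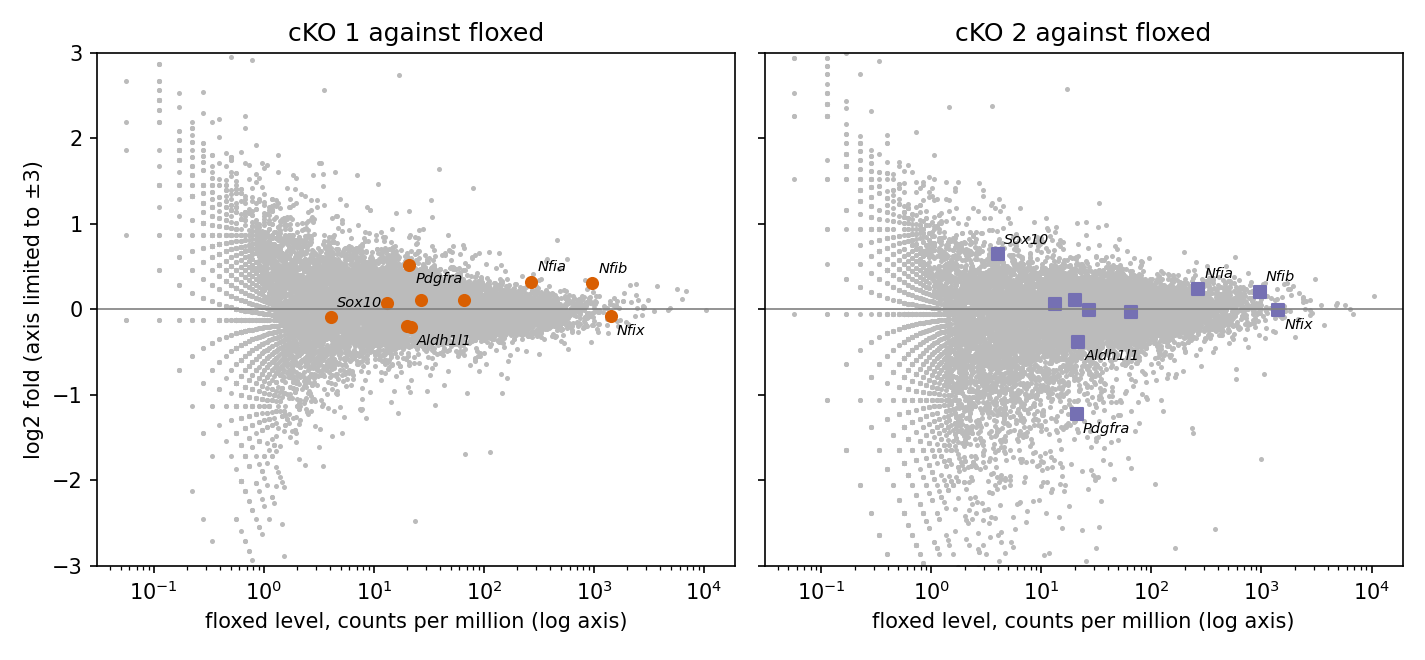
Log2 fold against floxed (vertical axis, limited to ±3) by floxed level in CPM (log axis), for cKO 1 at left and cKO 2 at right; grey points are the tested genes, coloured ones the 10 described, 6 of them named. Nfia and Nfib lie at the upper edge of genes of their level in cKO 1, and Pdgfra moves from above 0 to below it between the panels.

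Per length, the 10 genes in floxed ran from Nfix, Nfib and Nfia to Nfic (9.89 RPKM), Olig1 (9.33), Sox8 (8.67), Olig2 (5.23), Aldh1l1 (4.80), Pdgfra (2.09) and Sox10 (1.32). Olig1 (8.15 to 10.1 RPKM over the 3 libraries) could not be ordered against Nfic (9.68 to 10.7 RPKM) or Sox8 (8.63 to 9.37 RPKM), since its range overlapped both, while Nfic lay above Sox8 in every library. Pdgfra (0.891 to 3.01 RPKM) and Sox10 (1.24 to 2.06 RPKM) overlapped too. Olig2 (5.23 to 5.49 RPKM) lay above Aldh1l1 (3.69 to 4.80 RPKM) in every library. These levels rest on the summed exons of all isoforms in GENCODE M21.

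Of 19 tested regulators of the switch from neurons to glia, 9 were higher and 3 lower beyond counting error in cKO 1, and 7 and 2 in cKO 2, with median log2 folds of 0.15 and 0.03. The shares over all tested genes were 17.8% and 16% in cKO 1 and 16.1% and 24.5% in cKO 2, and the medians 0.01 and -0.04. Lifr, the receptor for the astrocyte-inducing cytokine LIF, had 19.2, 15.1 and 11.9 CPM in cKO 1, cKO 2 and floxed. Its co-receptor gene Il6st had 39.5, 19.97 and 31.2 CPM, and the ligand gene Ctf1 2.51, 2.21 and 3.14 CPM. Among 11 tested genes linked to NFI factors in other studies, 4 were higher and 1 lower in cKO 1, and 5 and 4 in cKO 2, with medians of 0.11 and -0.13. Fabp7, the lipid-binding protein of radial glia, had 661, 679 and 477 CPM (fitted log2 fold 0.51, SE 0.13, edgeR unadjusted p = 0.0136, adjusted p = 1). Bbx had 19.9, 19.3 and 15.02 CPM and Apcdd1, an inhibitor of Wnt signalling, 122, 85.7 and 123 CPM.

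Among genes of later glia, Gfap, the intermediate filament of astrocytes, had 1.59 and 1.99 CPM in cKO and 2.69 CPM in floxed. These rest on 31, 37 and 48 counts, and cKO 2 was within counting error of floxed. The neurotensin receptor gene Ntsr2 had 0.974, 0.592 and 2.13 CPM, on 19, 11 and 38 counts. Fgfr3 (84.9, 105 and 69.5 CPM) and Slc1a2 (55.1, 61.4 and 49.3 CPM) were higher beyond counting error in both cKO libraries. Both were named with their values in view. Of 23 tested astrocyte genes, 11 were higher and 5 lower in cKO 1, and 5 and 13 in cKO 2, with medians of 0.07 and -0.43. The gene lists overlap, so their counts are not separate. The astrocyte gene Slc1a3 is also on the radial glia and NFI-linked lists, and Fabp7 is on both of those. Gja1 and Gjb6, connexin genes that meningeal cells express too, had 108, 18.03 and 65.4 CPM and 11.2, 0 and 5.89 CPM. Of 19 oligodendrocyte precursor genes, 3 were higher and 0 lower in cKO 1, and 6 and 3 in cKO 2, with medians of 0.08 and 0.04. Of 11 tested genes of myelin and oligodendrocytes, 3 and 1 were higher and lower in cKO 1, and 4 and 2 in cKO 2, with medians of 0.08 and -0.26. Mbp, a myelin protein gene also transcribed outside glia, had 17.1, 18.1 and 21.8 CPM, and Cnp 19.7, 20.8 and 15.9 CPM.

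Radial glia genes had medians of 0.30 and 0.18 over 15 genes, with 11 higher and 0 lower in cKO 1, and 9 and 3 in cKO 2. Vim, their intermediate filament gene, had 858, 874 and 572 CPM (fitted log2 fold 0.62, SE 0.13, edgeR unadjusted p = 0.0068, adjusted p = 1). Fam107a of the same list went the other way, at 1.18, 0.969 and 1.85 CPM, and was lower beyond counting error in cKO 2. Pax6, named with its values in view, had 71.4, 70.4 and 73.0 CPM, within counting error of floxed in both cKO libraries. Neuronal genes had medians of -0.02 and 0.00 over 12 genes, with 4 and 5 higher and lower in cKO 1 and 5 and 6 in cKO 2. Lists of vessel and immune cells went the way of the meningeal list, with medians of 0.33 and -0.93 for endothelial, 0.29 and -0.70 for pericyte and smooth muscle, and 0.32 and -0.71 for microglia and macrophage genes. Erythroid genes had medians of 0.39 and 0.46 over 11 genes, while their summed level was 1596, 1290 and 1753 CPM, led by globin genes. No gene of any list passed the edgeR test (adjusted p = 1 for each list's lowest).

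**Figure D5:**
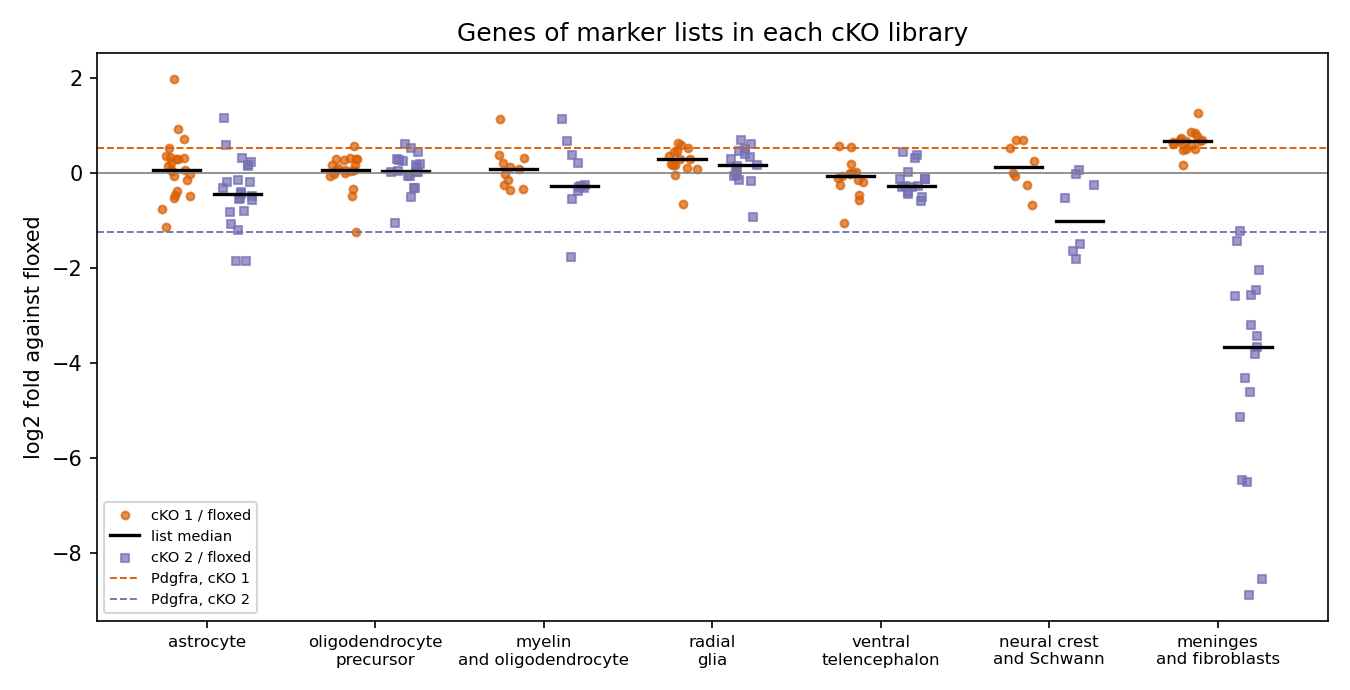
Log2 fold against floxed of the tested genes of 7 marker lists, with 1 point per gene: circles cKO 1, squares cKO 2, bars the list median; dashed lines give Pdgfra in each library. Gjb6 and Tfap2b had 0 counts in cKO 2 and are not drawn there; the meninges list reaches from a median of 0.68 in cKO 1 to -3.65 in cKO 2.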

How the data were processed

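The authors deposited raw counts per gene in 2 tables, per the file headers, each holding 1 cKO library beside the same floxed library. Bowtie2 2.2.3, TopHat2 2.0.12, HTSeq 0.6.0 and build mm9 are named in the submitters' processing notes. The positions in the tables are not of that build: 19557 of 21707 genes with an ID in GENCODE M21 (GRCm38), and 8 of the 10 described here, had the identical position, so coordinates are called GRCm38. The log2 folds and adjusted p-values in the authors' deposited tables rest on a single library a side, from a test that no source used here names. Another 4 columns of per-library values were not used. Column names hold KO or WT, which gave the group; which sample each library was is not known. The labels list 2 samples per group, 1 of each with the word Blood in its title, and the series text speaks of triplicates. Nothing says that libraries came from separate embryos, so the library-to-library spread behind the p-values may be technical. In edgeR's test most of that spread was drawn from all genes rather than from each gene, with 3.71 prior degrees of freedom beside 1 residual.

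Library totals were taken over all listed genes, and the floxed column, identical in both tables, was used once. Genes in both tables were tested, leaving out 1134 listed with cKO 1 alone and 665 with cKO 2 alone. In edgeR 4.0.16 (R 4.3.3) filterByExpr (minimum count 10) kept 16725 genes. TMM factors were 1.01, 0.978 and 1.01, and the quasi-likelihood test had 1 residual degree of freedom, so the floxed library was assumed to vary like the cKO libraries (common coefficient of variation 0.218). The SE is the log2 fold divided by the square root of F. A member or list gene counts as above or below floxed when the exact 95% interval of its ratio excludes 1. Alternatives were DESeq2 1.42.0, limma-voom (limma 3.58.1), other size factors, no filter and each cKO library left out; folds per library with TMM and RLE factors were added after seeing the data. The fit was tested on simulated counts with larger fold changes than those of the 10 genes and less spread than the common coefficient of variation above. That test does not show how the fit performs on folds as small as those of Nfia and Nfib. The counting interval was tested on simulated counts with counting error alone. The 10 genes and the gene lists were chosen with earlier results of these data known. Named list genes are at 1 CPM or more and have the largest shared fold (up to 3 per list) or the largest gap between the cKO libraries (up to 2), and others are said to be chosen later.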

Additional observations from a re-analysis of the deposited data

How the results depend on the processing

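The members called stayed at 0 under all 5 other fits, and the 50 fitted log2 folds of members under these fits (5 for each gene) kept their direction and none was called; the smallest unadjusted p of a member was between 0.0603 and 0.0686. The number of all genes called was 0, against 1 with total counts and 5 with DESeq2. The median fitted log2 fold of the members, 0.0654, was 0.0489 with total counts, 0.0736 with no filter, and 0.072 to 0.083 with 1 cKO library left out. Without 1 cKO library there is no residual degree of freedom, so no genes were called and folds carry no test. No refit was made, and each such fold is the ratio of the remaining cKO library to floxed with the same TMM factors. Nfix then ranged from -0.0855 to 0.0359, Olig1 from -0.203 to 0.154, Sox10 from -0.0982 to 0.685 and Pdgfra from -1.19 to 0.515, so with TMM factors the directions of these 4 genes depend on which cKO library is used, and those of the other 6 do not. Scaled by library totals, Nfic, Olig1, Sox8, Sox10 and Pdgfra lay on opposite sides of floxed in the cKO libraries, and Nfix lay below it in both. Leaving out the lone floxed library leaves no comparison. No paired analysis was possible because the floxed group has 1 library, which leaves no second pair. With 72 to 117 counts, the exact 95% counting interval of the Sox10 ratio to floxed in cKO 2 ran from 1.15 to 2.12.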
